A study of Mus musculus with 2 samples.

Results

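The adaptor gene Sla was examined together with 8 genes of the tyrosine kinases and ubiquitin ligases it works with: the Src-family kinases Lyn, Fgr and Src, the kinases Syk and Btk, the inhibitory kinase Csk, and the ligases Cbl and Cblb. A probeset was taken for a gene where the array's annotation named that gene and no other. This gave 20 of the 45101 probesets, for 8 of the 9 genes. Lyn had no probeset by this rule and is not analysed here. Sla is a reported target of miR-155, perhaps one picked from these very arrays, so its direction here is not independent evidence of targeting.

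The cells were RAW264.7, a mouse macrophage-like line that was derived from a tumour induced by Abelson murine leukaemia virus. They had been infected with the retroviral vector MSCV, either encoding mir-155 or empty, and single clones of both arms were obtained after puromycin selection (7 µg/ml). Each arm was a pool of RNA from 5 such clones on 1 array, so clones within an arm cannot be told apart. The sources used here do not give the promoter that drove the microRNA, and the arrays did not measure the mature microRNA. The question was which mRNAs miR-155 regulates.

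Sla encodes Src-like adaptor protein, which carries SH3 and SH2 domains like those of Src-family kinases but no kinase domain. It binds activated receptors and kinases and brings Cbl ligases to them, which marks the receptors for internalisation and degradation. In macrophages, Src-family kinases phosphorylate the tyrosine motifs of immune receptors, activating ITAMs and inhibitory ITIMs. Syk then docks on ITAMs, Btk helps to activate phospholipase C gamma, and Csk holds Src-family kinases inactive by phosphorylating their tail.

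The sequences of the microRNA from RefSeq, build GRCm38.p6, are shown because its seed defines which mRNA sites it can pair with. The hairpin lies on the plus strand at chr16:84714140-84714204. Its 5p arm is at chr16:84714143-84714165 and its 3p arm at chr16:84714182-84714202. In the hairpin the capitals mark both arms, and in the arms they mark the seed, bases 2 to 8.
Mir155 hairpin: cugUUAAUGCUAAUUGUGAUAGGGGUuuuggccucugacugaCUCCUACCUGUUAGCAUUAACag
mmu-miR-155-5p: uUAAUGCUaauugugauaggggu
mmu-miR-155-3p: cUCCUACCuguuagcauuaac
An mRNA pairs with the whole 5p seed through the letters agcauua. Of 1738 mature mouse microRNAs in the RefSeq table, 1 had this seed, miR-155-5p itself. The mRNA sequences of Sla and the other genes were not used here, so no site was looked for.

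Values are probeset signals on a linear scale, as deposited. Their median was 14.1 on the miR-155 array and 15.4 on the empty-vector array. Each of 18193 genes was represented by its brightest probeset, and the 9097 genes in the upper 50% of mean log2 signal were kept, which set a floor at a geometric mean signal of 25.8. Of the 8 genes with a probeset, 7 were kept and Src was not. A log2 ratio is the log2 signal on the miR-155 array minus that on the empty-vector array, and its median over the genes kept was −0.05. With 1 array per group there was no test and no p-value. The spread given is the local SD, a robust SD of the ratios of the 500 genes with the most similar signal, which does not measure variation between clones or cultures.

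The labelled cell type was checked first. All 9 macrophage markers listed (Csf1r, Cd68, Adgre1, Itgam, Lyz2, Spi1, Cd14, Mpeg1 and Fcgr1) reached the floor on both arrays, with summed signals of 20429.8 on the miR-155 array and 20174.4 on the empty-vector array. The sums were close, but single markers went apart: Cd14 (log2 ratio 1.26) and Fcgr1 (0.66) were past 1.5-fold upwards, and Adgre1 (−0.71) and Spi1 (−0.61) downwards. Csf1r was at −0.25 by its brightest probeset, but its further probesets above the floor gave −0.99 and −0.96. The part of these marker differences in the results below was not tested. Among markers of cells that also use these kinases, 1 of 7 B cell markers on the array was at or above the floor on both arrays, Ighm, with signals of 1523 and 1685 (miR-155 array first). Cd79a, which pairs with it in the B cell receptor, read 13.7 and 3.95 in the same order. Of 7 T cell markers, 1 passed the floor on the miR-155 array, Cd8a at 26.5, and none on the empty-vector array. None of 9 mast cell and neutrophil markers did so on either array.

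Sla was lower on the miR-155 array. Its brightest probeset, 1420819_at, read 123 on the miR-155 array and 296 on the empty-vector array. That is 2.41-fold lower (log2 ratio −1.27, local SD 0.28), at −4.41 local SDs from the median of genes of like signal. Among the 9097 genes kept, 72 had a lower ratio, which placed Sla at rank 73 from the lowest, or within the lowest 0.80%.

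The other Sla probesets differed in how far they followed. Probeset 1420818_at, annotated to the same RefSeq transcript, read 53.2 on the miR-155 array and 102 on the empty-vector array (1.91-fold lower, log2 ratio −0.94, local SD 0.39). Probeset 1447813_x_at read 13.0 and 27.5, with the miR-155 reading below the floor. Probeset 1441761_at, designed on an expressed sequence tag, read 20.1 on the miR-155 array and 21.2 on the empty-vector array, nearly level and below the floor on both. All 4 probesets thus read lower with miR-155, the pair above the floor by 1.91-fold or more, and the mean ratio over all 4 was −0.84. The sources used here do not say where on the transcript each probeset lies.

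**Figure D1:**
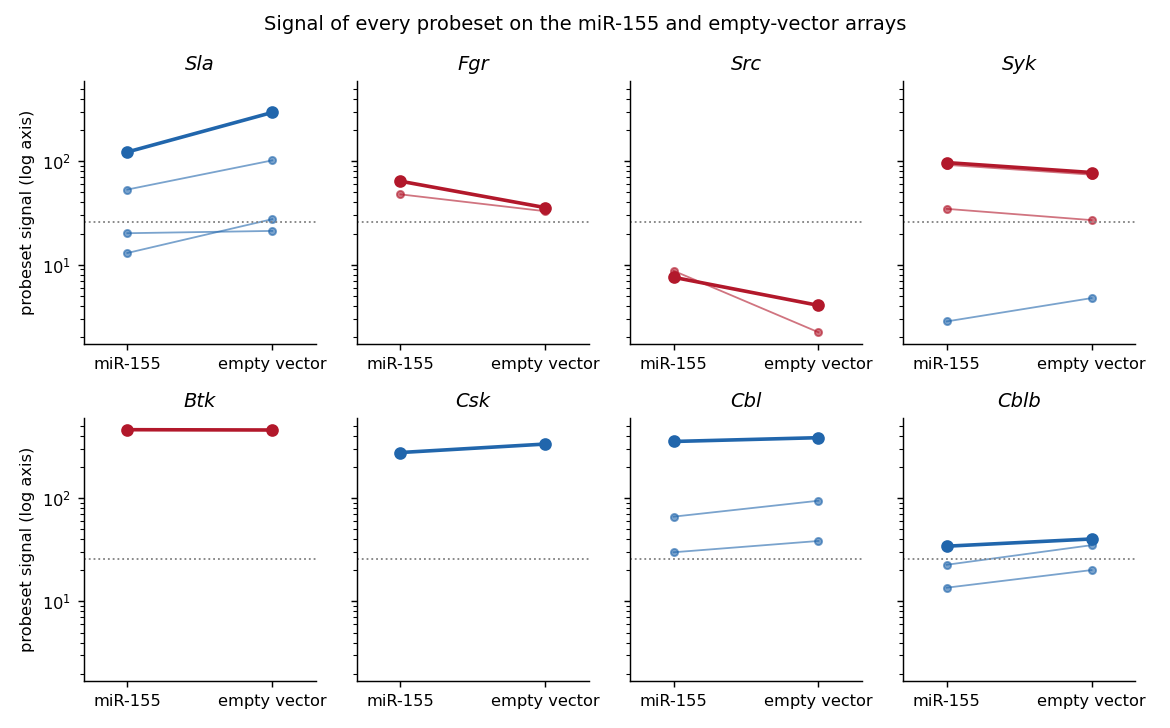
Signal of each of the 20 probesets (log axis) on the miR-155 array (left point) and the empty-vector array (right point), 1 panel per gene; thick lines are the brightest probeset, red lines read higher and blue lines lower with miR-155, and the dotted line is the floor of 25.8. All 4 Sla lines and all 6 lines of Cbl and Cblb climb towards the empty-vector side, and both lines of Fgr and both of Src descend towards it.

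Fgr, a Src-family kinase of myeloid cells that acts downstream of integrins and Fc receptors, went the other way. Its brightest probeset, 1442804_at, read 64.1 on the miR-155 array and 35.6 on the empty-vector array (1.80-fold higher, log2 ratio 0.85, local SD 0.54). The second, 1419526_at, annotated to the RefSeq transcript, read 47.8 and 32.9 in the same order (1.46-fold higher, log2 ratio 0.54, local SD 0.58). Both Fgr probesets were higher, but both were dim, and neither lay beyond 1.63 local SDs from the local median. Of the genes kept, 2.58% had a ratio at least as high as that of the brightest Fgr probeset.

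Src, the founding member of the kinase family, was at the level of dim probesets. Probeset 1423240_at read 7.55 on the miR-155 array and 4.04 on the empty-vector array, and 1450918_s_at read 8.73 and 2.22. Both readings of each probeset were far below the floor, and 35.3% and 38.4% of all probesets on the miR-155 array lay below them. No ratio is drawn from these readings.

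Syk, the kinase that docks on phosphorylated ITAMs, was slightly higher in its 3 probesets above the floor. Probeset 1418262_at read 97.0 on the miR-155 array and 77.8 on the empty-vector array (log2 ratio 0.32, local SD 0.37). Probesets 1418261_at and 1425797_a_at gave ratios of 0.32 and 0.36, so the 3 lay close together, each within 0.96 local SDs of its local median. The fourth, 1457239_at, read 2.83 and 4.75, below the floor on both arrays.

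Btk, the Tec-family kinase that helps to activate phospholipase C gamma, had 1 probeset, 1422755_at. It read 457 on the miR-155 array and 454 on the empty-vector array, a log2 ratio of 0.01 (local SD 0.18). By brightest probeset, this was the ratio nearest to 0 among Sla, the kinases and the ligases.

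Csk, the kinase that restrains Src-family kinases, also had 1 probeset. Probeset 1423518_at read 275 on the miR-155 array and 332 on the empty-vector array (1.21-fold lower, log2 ratio −0.27, local SD 0.21). This is −1.10 local SDs from the local median, and 20.4% of the genes kept had a ratio as low or lower.

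The ligases Cbl and Cblb, RING-type ubiquitin ligases that end signalling by tyrosine kinases, each read a little lower. Cbl was measured above the floor by 3 probesets. The brightest, 1434829_at, read 351 on the miR-155 array and 382 on the empty-vector array (log2 ratio −0.12, local SD 0.21). Probeset 1455886_at read 65.9 and 93.9 in the same order (log2 ratio −0.51, local SD 0.37), and 1450457_at 29.8 and 38.4 (−0.36, local SD 0.58). The Cbl probesets agreed in direction and differed in size, with the smallest difference in the brightest.

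Cblb had 1 probeset above the floor on both arrays, 1437304_at, with 34.1 on the miR-155 array and 40.1 on the empty-vector array (log2 ratio −0.23, local SD 0.56). Its other probesets, 1455082_at and 1458469_at, read 22.6 and 34.9, and 13.6 and 20.1 (miR-155 array first). All 3 Cblb probesets read lower, and the ratio of 1437304_at was smaller than its local SD. Over both ligases, 6 of 6 probesets were lower on the miR-155 array, where 58.0% of all genes kept also had a ratio below 0. The count of 6 gives no measure of replication because probesets of a gene share the same RNA and array.

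By brightest probeset, 1 of the 7 genes kept was at least 1.5-fold lower, Sla, and 1 at least 1.5-fold higher, Fgr. Over all genes kept, the shares past this fold were 5.99% in the lower and 5.32% in the higher direction. At 2-fold the count was 1 lower, Sla again, and 0 higher, against 1.43% and 1.92% of all genes kept. The other 5 genes lay within 1.5-fold. By single probesets, 13 of the 20 had both readings at or over the floor. Of these, 2 were at least 1.5-fold lower, both of Sla, against 5.58% of all such probesets, and 1 of Fgr was at least 1.5-fold higher, against 4.06%. The 7 ratios ran from −1.27 to 0.85, 4 below 0 and 3 above, with a median of −0.12. Of all genes kept, 58.0% had a ratio below 0.

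**Figure D2:**
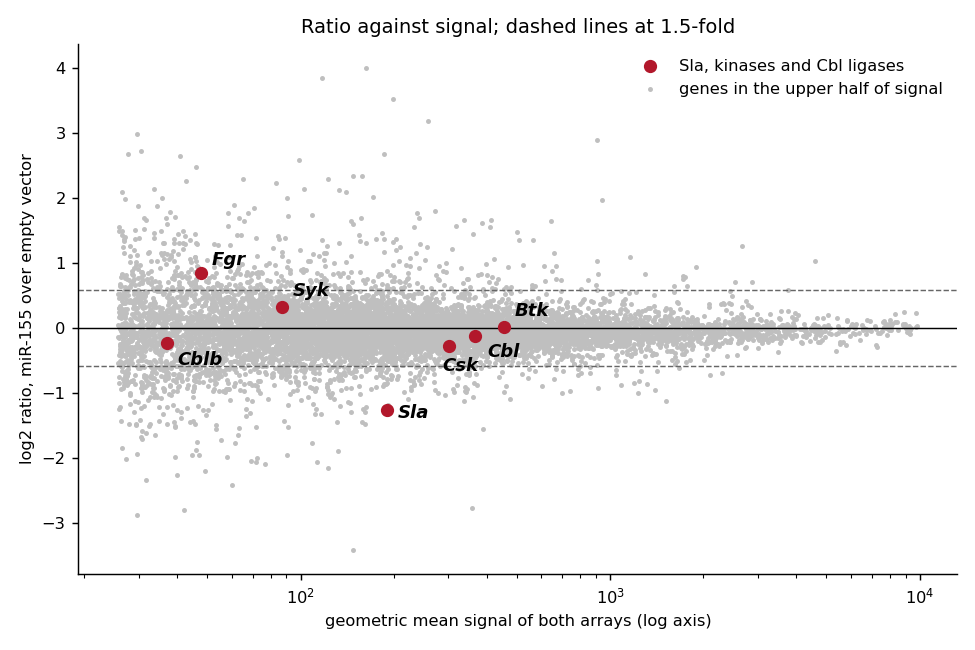
Log2 ratio of miR-155 over empty vector against the geometric mean signal of both arrays (log axis) for the 9097 genes kept (grey) and the 7 genes kept of the adaptor, kinases and ligases (red); dashed lines mark 1.5-fold. Sla lies at −1.27 below most genes of like signal, Fgr at 0.85 among widely scattered dim genes, and the other 5 between −0.27 and 0.32.

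The order of the 7 ratios was Sla, Csk, Cblb, Cbl, Btk, Syk and Fgr. From Csk to Btk, neighbours in this order differed by less than the local SD of either gene. Btk and Syk were 0.31 apart, which is more than the local SD of Btk but less than that of Syk. Syk and Fgr were 0.53 apart, more than the local SD of Syk and just under that of Fgr. Sla and Csk were 0.997 apart, more than 3 times the local SD of either.

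Of the other Src-family kinases listed, Fyn, Yes1, Blk and Frk had a probeset by the rule. Fyn, a kinase of T cells, neurons and many other cells, was the 1 gene kept. It read 253 on the miR-155 array and 154 on the empty-vector array (1.64-fold higher, log2 ratio 0.71, local SD 0.28). Its second probeset above the floor gave 0.57. Frk read 7.41 and 5.93, Blk 11.9 and 5.74, and Yes1 7.72 and 1.03 (miR-155 array first), all below the floor.

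The wider pathway was described by 7 lists that exclude the 9 genes, with 105 of 146 genes kept. Past 1.5-fold were 12 in the higher direction (11.4%) and 8 in the lower (7.62%), against 5.32% and 5.99% of all genes kept, and the median log2 ratio was −0.03. The lower share was thus near that of all genes. Of the 12 higher genes, 7 belonged to the list of receptors and chains. Among 11 other cytoplasmic tyrosine kinases kept, 0 were at least 1.5-fold higher and 2 lower (median −0.11). These were Fer at −0.74, whose further probeset gave 0.03, and Abl1 at −0.64. The viral oncogene of the Abelson virus derives from Abl1, and whether the Abl1 probeset also detects it was not tested.

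Adaptors and scaffolds, the class to which Sla belongs, stayed mostly near 0. Of 26 kept, 1 passed 1.5-fold upwards and 0 downwards, around a median of 0.04. The exception was Dok2, a docking protein that dampens tyrosine kinase signalling, at 714 on the miR-155 array and 458 on the empty-vector array (log2 ratio 0.64, local SD 0.19). These counts depended on the setting. With the median ratio of all probesets set to 0, or with quantile normalisation, 3 adaptors passed upwards. With the mean of all probesets, 2 passed upwards and 2 downwards, and with no filter 4 and 2. With the brightest plain probeset of each gene, the counts were 2 and 0. Either offset, and the upper 25% of signal, left the counts at 1 and 0. Sla2, the closest relative of Sla, read 3.17 and 11.0, below the floor on both arrays, and was named after its values were seen. The lowest ratio among the adaptors kept was that of Bcar1, also named after its values were seen, with signals of 23.2 on the miR-155 array and 32.8 on the empty-vector array.

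Among 14 ubiquitin partners of Cbl, Arap1 (0.85) was the 1 gene past 1.5-fold upwards and the ligase Nedd4l (−0.75) the 1 downwards, around a median of −0.12. The tyrosine and inositol phosphatases gave the same counts among 14 kept, with a median of −0.12. Ptprc, the phosphatase CD45 that removes the inhibitory tail phosphate from Src-family kinases, read 2014 on the miR-155 array and 1294 on the empty-vector array (log2 ratio 0.64, local SD 0.15). With the brightest plain probeset of each gene, 0 phosphatases passed 1.5-fold upwards, and with the mean of all probesets 4 passed downwards. Inpp5d, the inositol phosphatase SHIP1 and another reported miR-155 target, read 247 and 466 in the same order (−0.91, local SD 0.21). However, its further probeset gave −0.02. Among the ubiquitin partners, the brightest plain probesets gave 3 past 1.5-fold upwards and 0 downwards. The mean of all probesets gave 1 and 3, and no filter gave 4 and 2.

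Of 19 downstream effectors, 1 was at least 1.5-fold higher and 2 lower (median −0.07). The exchange factor Vav3 was higher (1.27, and 0.64 and 0.81 in its further probesets). Phospholipase Plcg1 (−0.79, local SD 0.54) and the PI3-kinase regulatory subunit Pik3r5 (−0.73, local SD 0.28) were lower. Plcg1 was dim, at 32.7 on the miR-155 array and 56.4 on the empty-vector array. Receptors and chains had the highest median of any list with more than 1 gene kept. Most signal through ITAMs or ITIMs, through which Src-family kinases and Syk act. The list also held receptor tyrosine kinases and integrin chains. Of these, Csf1r (−0.25, and −0.99 and −0.96 in its further probesets) and Itgb2 (0.53) were kept. Of 20 kept, 7 (35%) passed 1.5-fold upwards and 2 (10%) downwards, around a median of 0.48. Over all genes kept, these shares were 5.32% and 5.99%. However, 3 of the 20 had an empty-vector reading under the floor and were kept through their miR-155 reading. All 3 lay above that median, and Pilra (48.5 on the miR-155 array, 21.5 on the empty-vector array) was 1 of the 7. Among genes of the list with both readings at or over the floor, the highest were the inhibitory Fc receptor Fcgr2b (3.99), the Mincle lectin Clec4e (1.68), Cd300lf (1.57) and Cd33 (0.73). The lower ones were Cd300a (−1.01) and Sirpa (−0.67, and −0.66 and −0.23 in its further probesets). With an offset of 50, Fyn, Fer, Abl1, Nedd4l, Plcg1 and Pik3r5 all lay within 1.5-fold. The median of the receptors was 0.19 with an offset of 50, 0.06 with no filter and 0.01 in the upper 25% of signal.

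**Figure D3:**
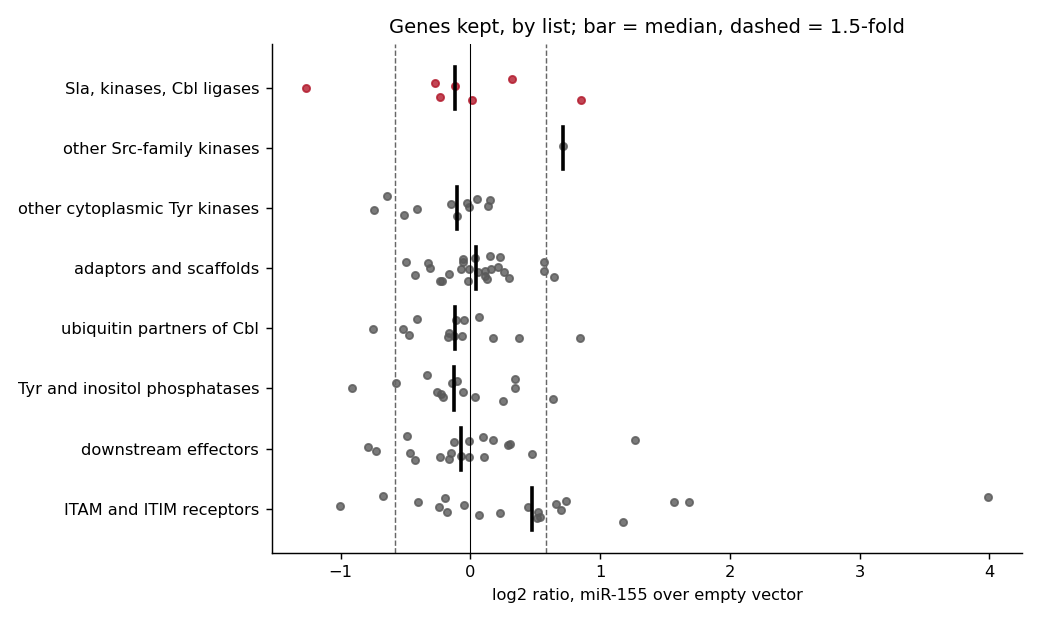
Log2 ratio of miR-155 over empty vector for each gene kept, by list, with the adaptor, kinases and ligases on top in red; black bars are medians and dashed lines mark 1.5-fold. Medians lie between −0.12 and 0.04 for 6 of the 8 rows, at 0.71 for the single gene Fyn and at 0.48 for the receptors, where Fcgr2b stands apart at 3.99. Among the receptors kept, 3 had an empty-vector reading under the floor.

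The ratios were recomputed under 8 other settings of scaling, offset, probeset choice and filter. Sla had a value in 7 of them, from −1.27 with plain probesets or no filter to −0.84 with the mean of all probesets, and was at least 1.5-fold lower in each. It had none with the filter at the upper 25% of signal, since its geometric mean signal of 190.7 was just under that floor of 194. Fgr was at least 1.5-fold higher in 6 of 7, and read 0.41 with an offset of 50. Syk, Btk, Csk, Cbl and Cblb stayed within 1.5-fold wherever they had a value, with signs as above. The filter settings change only which genes are kept, and plain probesets left these ratios unchanged, so those values repeat the main ones.

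**Figure D4:**
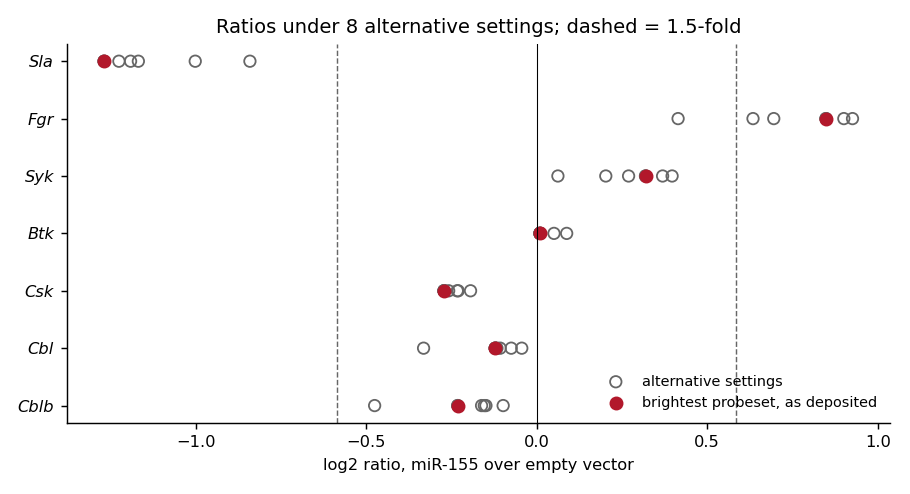
Log2 ratio of miR-155 over empty vector for the 7 genes kept, with the brightest probeset as deposited (red) and the alternative settings (open circles); dashed lines mark 1.5-fold. Every Sla circle lies left of the dashed line, from −1.27 to −0.84, the Fgr circles run from 0.41 to 0.93, and the other 5 genes stay between the lines.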

How the data were processed

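One table was used, with a value per probeset for each of 2 Affymetrix arrays. The authors deposited probeset intensities on a linear scale. Labelling followed the manufacturer's procedures, per the labels' protocols; the sources used here do not name the summarisation software, the scaling or detection calls. The platform annotation named the probesets (34945 with 1 gene symbol, 932 with several, 9160 unlisted and 64 controls left out). Symbols were updated by Entrez identifier through the RefSeq table of GRCm38.p6, which changed 0. Ratios used no offset. The local SD is the median absolute deviation scaled by 1.4826 among the 500 genes nearest in signal, and its step was tested on simulated data. Across the genes kept, log2 signals of the arrays correlated with r = 0.97; genes are not independent replicates. The number of arrays, 1 per group, limits the precision, and no p-value was computed. Python 3.11.15, numpy 2.4.6 and pandas 2.3.3 were used.

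The genes, the lists and the alternatives were chosen with earlier results of these data known. The genes named were all 9 genes with all their probesets, every other Src-family kinase on the array, and from each other list at most 4 in each direction that were at least 1.5-fold apart with neither reading under the floor. Sla2, Bcar1, Itgb2, Pilra and the cell type markers with values were named outside this rule. Where a list had none beyond 1.5-fold, its highest and lowest gene would have been named. No gene was named for a like pattern, since 2 arrays give only 1 ratio.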

Additional observations from a re-analysis of the deposited data

How the results depend on the processing

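No paired analysis was possible because each group had 1 array and the shared number 1 is only a name; no replicate could be left out. Of the 52 recomputed ratios of single genes, 51 moved by less than the local SD and none reversed. The 1 that moved more was Sla, at −0.84 with the mean of all probesets, which brings in its 2 dim ones. The filter settings and the choice of plain probesets left every ratio they gave unchanged, so part of the 51 could not move. The median over Sla, the kinases and the ligases kept ran from −0.27 to −0.04. The count at least 1.5-fold higher was 1, but 0 with an offset of 50, 0 in the upper 25% of signal, where Fgr was not kept, and 2 with no filter, where dim Src entered. The count at least 1.5-fold lower was 1, but 0 in the upper 25% of signal, where Sla was not kept. Over all 7 lists, 12 of 105 genes were at least 1.5-fold higher, against 7 in the upper 25% of signal. With no filter it was 22 of the 134 genes on the array. The 8 lower ones became 5 with an offset of 16, 3 with an offset of 50, 13 with the mean of all probesets, 3 in the upper 25% of signal and 16 with no filter. The share of all genes at least 1.5-fold lower ran from 2.07% to 21.2% over these settings. The share at least 1.5-fold higher was 5.32% in the main setting, 2.42% in the upper 25% of signal and 17.1% with no filter. For counts and medians of single lists, 39 of 168 recomputed values moved by other limits. A count was taken as moved where the larger value was more than 1.5 times the smaller. A median was taken as moved where it shifted by at least 0.215, a robust SD of ratios between probesets of the same gene. Dim probesets limit what can be said of Fgr, Src and Cblb.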
